A study of Canis lupus familiaris with 28 samples.

Results

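The OMMs with the highest and the lowest expression of fibrillar collagen and proteoglycan genes were compared, within 28 formalin-fixed, paraffin-embedded (FFPE) biopsies of primary canine oral malignant melanoma (OMM). For each tumour a matrix score was taken as the mean log2 value of COL1A1, COL1A2, COL3A1, DCN and LUM, each read at its brightest Transcript cluster (the set of probes along a transcribed locus). The 9 tumours with the highest score are called matrix-high and the 9 with the lowest score matrix-low, which leaves 10 tumours between them. The tumours were thus chosen by values from the same arrays, and every difference between matrix-high and matrix-low OMMs is a description and carries no test. Only the labels, which are metastatic status and breed, were tested.

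The study compared 18 metastasising (M) with 10 non-metastasising (NM) OMMs, with RNA from each tumour on 1 canine gene array. M OMMs came from dogs with proven metastasis that died of it, and NM OMMs from dogs without metastasis that received no adjuvant therapy and survived. No normal oral mucosa or dermis was analysed here, so each level is relative to other tumours only. All M tumours were of stage III or IV and most NM tumours of stage I or II. Ages were not joined to single tumours, and RNA integrity only through the order of breeds, as given below. The matrix-high group held 5 M and 4 NM OMMs, from 5 Golden Retrievers, 2 Labrador Retrievers, 1 Dachshund and 1 Cocker Spaniel. The matrix-low group held 5 M and 4 NM OMMs, from 6 cross breed dogs, 2 Golden Retrievers and 1 Irish Terrier. No matrix-high OMM came from a cross breed dog, and the cross breed arrays also stand apart in other genes, as given below. The working name of these groups was stroma-rich and stroma-poor. Epithelial and S100 genes differed between them as well, so the groups are named for their score.

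The stroma of a tumour is its connective tissue, which holds fibroblasts, vessels with their smooth muscle and pericytes, and white blood cells. Fibroblasts secrete type I and type III collagen, and the small leucine-rich proteoglycans decorin (DCN) and lumican (LUM) bind to the fibrils and regulate their spacing. Fibroblasts in a tumour that acquire smooth muscle actin are called myofibroblasts. A biopsy of an oral melanoma can also hold overlying squamous epithelium, glands, muscle, nerve or bone, and melanoma cells can make matrix proteins themselves. In a bulk biopsy, fewer cells of a type and less RNA per cell cannot be told apart.

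The score lay at a lowest value of 4.49, a median of 4.91 and a highest value of 6.54 in the matrix-high OMMs, against 2.73, 2.96 and 3.07 in the matrix-low OMMs. The 10 tumours between them lay at 3.31 to 4.40. The matrix-high group was therefore spread out and the matrix-low group narrow, with SDs of 0.668 and 0.122. NM replicate 2, a Golden Retriever, had the highest score at 6.54, and the next tumour, NM replicate 3, had 5.46. At the upper limit, M replicate 14 was just inside the matrix-high group at 4.49 and M replicate 18 just outside at 4.40. At the lower limit, M replicate 3 was just inside the matrix-low group at 3.07 and M replicate 13 just outside at 3.31. The upper limit thus cuts a continuous run of scores.

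Each of the 5 genes that made the score contributed to it. COL1A1 averaged 5.40 ± 1.43 in the matrix-high OMMs and 3.11 ± 0.50 in the matrix-low OMMs (SD, n = 9 each). DCN averaged 4.93 ± 1.08 in the matrix-high OMMs and 2.22 ± 0.66 in the matrix-low OMMs (SD, n = 9 each). LUM had the narrowest spread in the matrix-high OMMs, at 3.55 to 4.63, against 1.21 to 2.35 in the matrix-low OMMs. The 5 genes did not rank the tumours alike. NM replicate 5 had 7.0 for COL1A1 and 3.29 for DCN, and NM replicate 4 had 3.81 for COL1A1 and 5.96 for DCN.

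**Figure D1:**
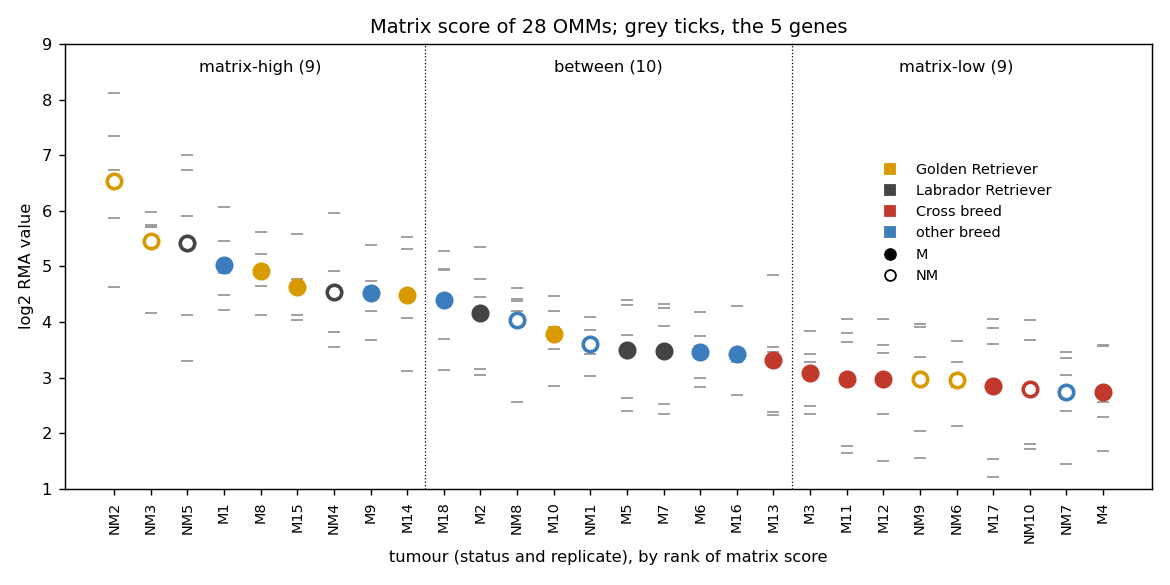
The matrix score (circles, log2 RMA value) of the 28 OMMs is plotted by rank from high to low, with the values of COL1A1, COL1A2, COL3A1, DCN and LUM as grey ticks, breed as colour and metastatic status as filled (M) or open (NM) circles. Dotted lines separate the 9 matrix-high, 10 between and 9 matrix-low tumours, and 6 of the 9 matrix-low tumours are from cross breed dogs.

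The first question for the labels was whether the score went with metastasis. It averaged 3.76 ± 0.75 in the 18 M OMMs and 4.10 ± 1.34 in the 10 NM OMMs, a difference of -0.34 that was smaller than either SD (two-sided permutation test, 100000 resamples, p = 0.391, adjusted p = 0.411 over 4 tests on labels). NM OMMs held both the highest score, 6.54, and one of the lowest, 2.74. The 9 matrix-high and 9 matrix-low OMMs had the same split of 5 M and 4 NM (two-sided Fisher's exact test, p = 1). The 8 OMMs of the M group between the extremes and 2 of the NM group complete the series.

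The score differed by breed. It averaged 2.96 ± 0.20 in the 7 cross breed OMMs and 4.19 ± 0.95 in the 21 others (two-sided exact permutation test, difference -1.23, p = 0.000291, adjusted p = 0.00116). Within the M OMMs alone, the 6 cross breed tumours had 2.73 to 3.31 and the 12 others 3.42 to 5.02, with no overlap (exact permutation p = 0.000108). The 8 Golden Retriever OMMs averaged 4.47 ± 1.23 and the other 20 tumours 3.65 ± 0.80 (exact permutation p = 0.0551, adjusted p = 0.110). Within the M OMMs the 4 Golden Retriever tumours were 0.89 above the 14 others, 6 of them cross breed (exact permutation p = 0.0359, not adjusted). Within the NM OMMs the 4 were 0.63 above the 6 others (exact permutation p = 0.457). Without the cross breed tumours, the 8 Golden Retriever OMMs were 0.445 above the other purebred OMMs (exact permutation p = 0.314, not adjusted). The 5 Labrador Retriever OMMs averaged 4.22 ± 0.81 against 3.81 ± 1.02 in the other 23 (exact permutation p = 0.411, adjusted p = 0.411). The difference for the cross breed OMMs was known from earlier work on these arrays and is not independent support.

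The cross breed arrays differed from the rest in more than matrix genes. On the first principal component of all Transcript clusters, with 34.9% of the variance, the 7 cross breed OMMs lay at -93.2 to -37.5 and the 21 others at -52.0 to 89.2. The mean of 58 ribosomal protein genes was 3.05 to 5.34 in the cross breed OMMs and 4.88 to 6.39 in the others. In terms of the groups compared here, that mean was 4.88 to 6.39 in the matrix-high OMMs and 3.05 to 6.02 in the matrix-low OMMs. The percentage of Transcript clusters above a log2 value of 4 was 4.85% to 6.40% in the matrix-high OMMs and 4.30% to 5.28% in the matrix-low OMMs. In the matrix-high group NM replicate 4, NM replicate 5 and M replicate 14 had first component values of -25.3, -25.1 and -22.5. The other matrix-high tumours had 39.1 or more, and what this means for their gene values was not tested. By the paper's PCR measure of RNA integrity, RNA was less intact in all cross breed tumours than in most Golden Retriever tumours. In the 6 cross breed matrix-low tumours, low matrix score, cross breed, a low ribosomal mean and less intact RNA cannot be told apart. The replicate numbers follow the order of breeds in the paper's list of dogs, although the labels give no dog name. Read in that order, RNA was less intact in every matrix-low tumour, purebred ones included, than in most matrix-high tumours. Low matrix score and less intact RNA thus cannot be told apart in the matrix-low group as a whole. A second comparison left out the cross breed OMMs and set the 7 highest against the 7 lowest of the 21 purebred OMMs. Their ribosomal means overlapped, at 4.88 to 6.39 in the high and 5.15 to 6.26 in the low purebred tumours, and so did the first component, at -25.3 to 89.2 and -21.8 to 82.6. The medians still parted, at 5.95 and 5.51 for the ribosomal mean and 66.0 and -5.0 for the first component. The median percentage of Transcript clusters above 4 was 5.91% and 5.19%. The high and low purebred tumours were thus not balanced for these array-wide measures. Nor were they balanced for RNA integrity. By the order of breeds, RNA was less intact in most low than in most high purebred tumours. Their scores were 4.53 to 6.54 and 2.74 to 3.50, with 3 M and 4 NM among the high and 4 M and 3 NM among the low tumours. Differences from this comparison are called purebred differences below. Of its 7 low tumours 4 came from the tumours between the extremes. The 9 matrix-high OMMs were also set against the 3 purebred matrix-low OMMs alone, and that value is given beside those purebred differences from which it parts widely.

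**Figure D2:**
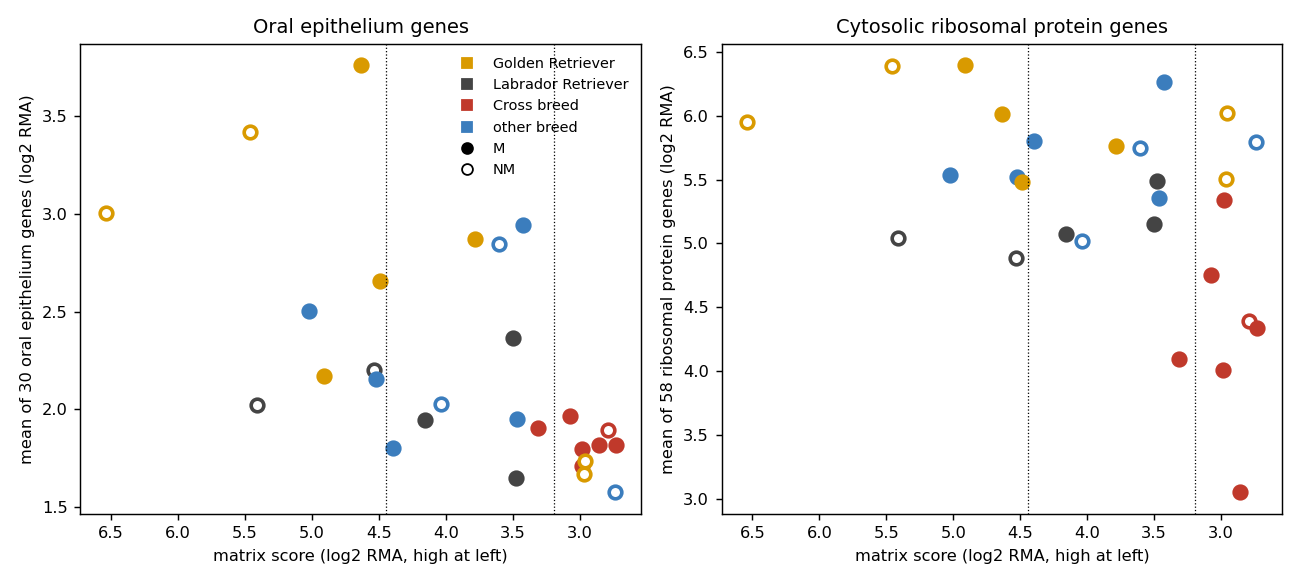
Each point is a tumour, with its matrix score on the x axis (log2 RMA, high at left) against the mean of 30 oral epithelium genes (left) and of 58 ribosomal protein genes (right), coloured by breed and filled for M or open for NM. The 9 matrix-high tumours lie left of the first dotted line with epithelial means of 2.02 to 3.76, all above the 1.58 to 1.97 of the 9 matrix-low tumours right of the second line, and the lowest ribosomal means belong to cross breed tumours.

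A Transcript cluster was counted as higher or lower when the means of the matrix-high and matrix-low OMMs differed by at least 1 log2 unit. Of 32391 Transcript clusters, 1008 (3.11%) were higher and 405 (1.25%) lower in the matrix-high OMMs. The tumours of the groups did not overlap at 40 Transcript clusters (0.123%) that were higher and 37 (0.114%) that were lower. Read once per gene, at the brightest Transcript cluster and without the 5 score genes, 387 of 16290 genes (2.38%) were higher and 14 (0.0859%) lower, and 20 (0.123%) higher and 10 (0.0614%) lower genes did not overlap. Since the sorting used these arrays, nothing is read from these shares beyond their use as background for the lists below. Bright Transcript clusters moved most: among 1488 with a mean above 4, 440 (29.6%) were higher and 298 (20%) lower. Of 3502 genes with a mean above 2, 374 (10.7%) were higher, and a list whose members mostly lie under 2, near the floor of the array, could show few differences of this size. In the purebred comparison 117 genes (0.718%) were higher and 8 (0.0491%) lower, and against the 3 purebred matrix-low OMMs 247 (1.52%) were higher. The median difference over all genes was -0.03, and -0.00 in the purebred comparison.

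Of 14 other collagens measured, 1 was higher, none was lower, and the median difference was 0.02 (purebred 0.22). Only 7 of the 14 had a mean above 2, and their median difference was 0.23. COL12A1 (Transcript cluster 14284366), a collagen that lies along the surface of type I fibrils, was the higher one and its groups did not overlap. It had a lowest value of 2.34, a median of 3.24 and a highest of 5.92 in the matrix-high OMMs, against 1.95, 2.09 and 2.32 in the matrix-low OMMs. M replicate 1 and NM replicate 2 stood above the other matrix-high tumours at 5.92 and 5.53, while all 9 matrix-low tumours lay within 0.4 of each other. The difference was 1.56 (SE 0.39) and the purebred difference 1.53. COL6A3, a chain of the microfibrillar type VI collagen, differed by 0.99 (SE 0.26), COL6A1, another chain of it, by 0.67 (SE 0.14), and COL14A1, which like COL12A1 associates with fibrils, by 0.76 (SE 0.27). COL10A1, the collagen of hypertrophic cartilage, had the largest difference in the other direction, at 1.51 in the matrix-high OMMs and 2.03 in the matrix-low OMMs.

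The matrix glycoproteins, which link cells to fibrils, had 5 of 29 measured members higher and none lower, with a median difference of 0.43 (purebred 6 of 29, median 0.41). SPARC (Transcript cluster 14404493), a collagen-binding glycoprotein made by fibroblasts, endothelium and melanoma cells, differed most. Its values were 6.79, 7.44 and 8.57 (lowest, median and highest) in the matrix-high OMMs and 2.87, 4.46 and 5.97 in the matrix-low OMMs. No tumour of either group reached the range of the other, and the 10 tumours between had 5.46 to 7.36. The difference was 2.92 (SE 0.35), and 1.80 in the purebred comparison.

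FN1 encodes fibronectin, the scaffold on which collagen fibrils assemble. Its lowest, median and highest values were 2.07, 3.37 and 4.97 in the matrix-high OMMs and 1.78, 2.11 and 2.30 in the matrix-low OMMs. A single matrix-high tumour, M replicate 14 at 2.07, reached into the matrix-low range. The difference was 1.52 (SE 0.27) and the purebred difference 1.19. FBN1, the main chain of elastic microfibrils, differed by 1.65 (SE 0.35), with a purebred difference of 1.32. POSTN encodes periostin, a matricellular protein of activated fibroblasts, and it was high in few tumours. It had 1.72, 2.60 and 5.27 in the matrix-high OMMs and 1.45, 1.75 and 1.96 in the matrix-low OMMs, so that the Labrador Retriever tumours NM replicate 4 (1.72) and NM replicate 5 (1.91) lay within the matrix-low range. M replicate 1 (5.27) and NM replicate 2 (4.80) were the same 2 tumours that led for COL12A1. VCAN, a large proteoglycan, differed by 1.35 (SE 0.42) over all tumours, by 0.33 in the purebred comparison and by 1.32 against the 3 purebred matrix-low OMMs.

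Among 8 other small leucine-rich proteoglycans, 1 was higher and none lower, with a median difference of 0.39 (purebred 0.42). That gene was BGN, encoding biglycan, a close relative of decorin. Its values were 3.45, 4.55 and 6.13 in the matrix-high OMMs and 2.68, 3.01 and 3.82 in the matrix-low OMMs. Its groups overlapped by M replicate 14 (3.45) among the matrix-high and NM replicate 9 (3.82) among the matrix-low tumours. The difference was 1.65 (SE 0.30) and the purebred difference 1.17. PRELP and ASPN, further members that bind collagen, differed by 0.96 (SE 0.27) and 0.77 (SE 0.24).

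Enzymes that process collagen did not pass 1 log2 unit. None of 21 measured was higher or lower, although 16 had a positive difference, with a median of 0.26 (purebred 0.12). The largest were PPIB, a prolyl isomerase of the collagen folding complex, at 0.79 (SE 0.34), P4HB, a subunit of prolyl 4-hydroxylase, at 0.61 (SE 0.18), and SERPINH1, the collagen chaperone HSP47, at 0.53 (SE 0.21). Their purebred differences were 0.62, 0.43 and 0.21.

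Of 20 matrix proteases and inhibitors, 4 were higher and none lower, with a median of 0.12. The inhibitors TIMP2 and TIMP3 differed by 1.63 (SE 0.38) and 1.39 (SE 0.28), and by 1.29 and 1.24 in the purebred comparison. TIMP3 was unevenly spread, since NM replicate 5 (1.92), M replicate 14 (2.01) and NM replicate 4 (2.10) of the matrix-high OMMs lay near the highest matrix-low value of 1.97, and the other 6 had 2.81 to 4.12. CTSK, a collagen-degrading cathepsin, differed by 1.70 (SE 0.52), but by 0.47 in the purebred comparison and 1.03 against the 3 purebred matrix-low OMMs. MMP2, a gelatinase of stromal cells, differed by 1.27 (SE 0.36), by 0.66 in the purebred comparison and by 1.39 against the 3 purebred matrix-low OMMs. The differences of both inhibitors were above 1 log2 unit in all 3 comparisons, and those of both proteases depended on which low tumours were taken.

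**Figure D3:**
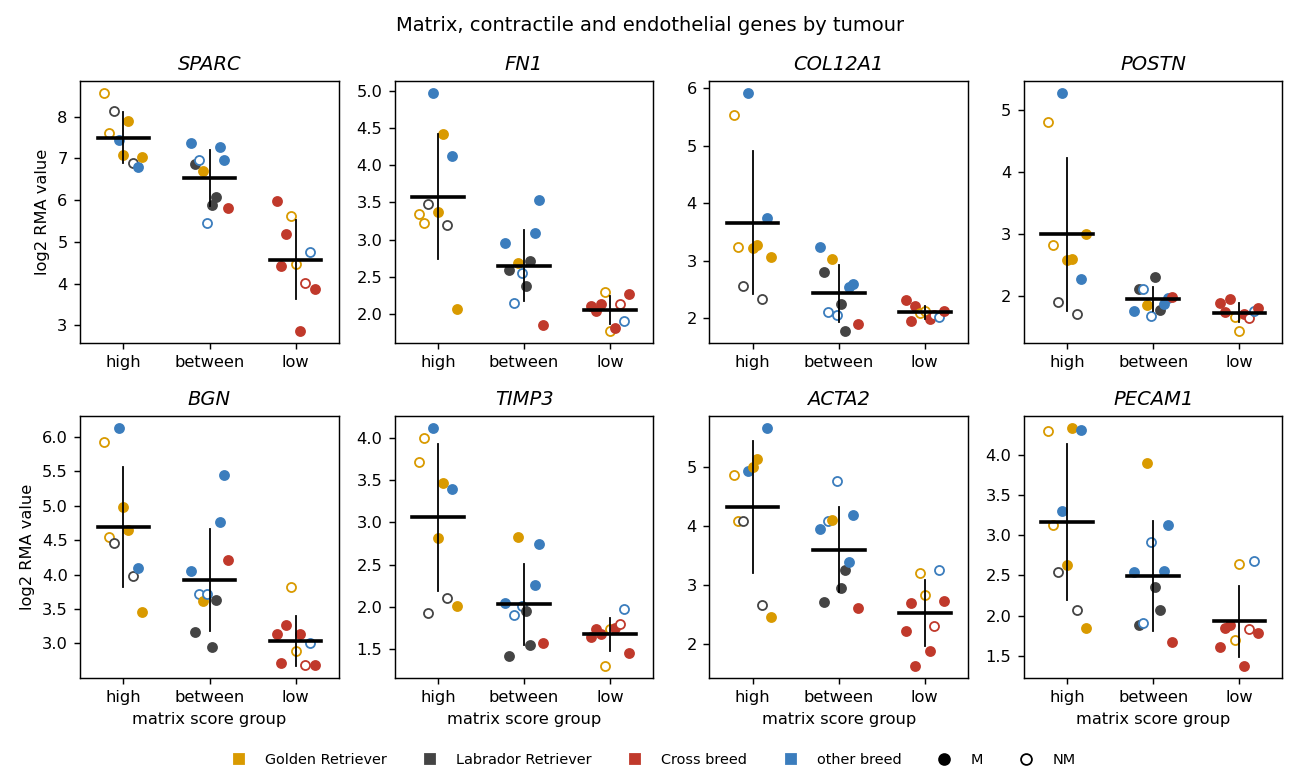
Log2 RMA values of 8 matrix, contractile and endothelial genes are shown for each tumour in the matrix-high, between and matrix-low groups (points, coloured by breed, filled for M and open for NM), with the mean (bar) and SD (line). SPARC and COL12A1 do not overlap between the matrix-high and matrix-low tumours, while POSTN and TIMP3 are high in only some of the matrix-high tumours.

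Few genes that mark the fibroblast itself were bright enough to read. Of 26 measured genes of fibroblast surface and signalling, 3 were higher and none lower, with a median of 0.06 (purebred 1 of 26, median 0.09). Those 3 were among the 6 members with a mean above 2, whose median was 1.01. CXCL14, a chemokine made by fibroblasts and epithelium, differed by 1.47 (SE 0.41). PRRX1, a mesenchymal transcription factor, differed by 1.20 (SE 0.31), and C1R, a complement protease that fibroblasts secrete, by 1.03 (SE 0.18). FAP, a surface protease of activated fibroblasts, was near the floor of the array, at 1.33 to 2.26 in the matrix-high OMMs and 1.15 to 1.58 in the matrix-low OMMs. PDGFRA and PDGFRB, the receptors for platelet-derived growth factor on fibroblasts and pericytes, averaged 1.88 ± 0.23 and 1.99 ± 0.20 in the matrix-high OMMs, against 1.63 ± 0.15 and 1.81 ± 0.15 in the matrix-low OMMs (SD, n = 9 each).

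Among smooth muscle and pericyte genes 1 of 16 was higher, with a median of 0.14 (purebred 0.25). ACTA2, the actin of smooth muscle and myofibroblasts, had 2.47, 4.87 and 5.66 in the matrix-high OMMs and 1.64, 2.70 and 3.25 in the matrix-low OMMs. M replicate 14 (2.47) and NM replicate 4 (2.67) were low for a matrix-high tumour, and the other 7 lay above every matrix-low OMM. The difference was 1.79 (SE 0.39), and 1.10 in the purebred comparison. CALD1, an actin-binding protein of contractile cells, differed by 0.96 (SE 0.31) and TAGLN, a smooth muscle protein, by 0.24 (SE 0.12). Endothelial genes had 1 of 18 higher and a median of 0.16. PECAM1, the adhesion molecule CD31 of endothelium, differed by 1.23 (SE 0.33), with 1.85 to 4.33 in the matrix-high OMMs and 1.38 to 2.68 in the matrix-low OMMs, and by 0.74 in the purebred comparison.

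The list with the most members higher after ribosomal proteins was that of oral epithelium. Of 30 measured genes, 12 were higher, none lower and 4 did not overlap, and the median difference was 0.83. The count was 8 of 30 with a median of 0.80 in the purebred comparison. The mean of the list was 2.02 to 3.76 in the matrix-high OMMs and 1.58 to 1.97 in the matrix-low OMMs, so that the groups did not overlap. Against the 3 purebred matrix-low OMMs 15 of 30 were higher, with a median of 1.06. In the purebred comparison the means overlapped, at 2.02 to 3.76 in the high and 1.58 to 2.94 in the low tumours. Not all members of the list differed. EPCAM, an adhesion molecule of simple epithelium, was at 1.25 ± 0.15 in the matrix-high OMMs and 1.27 ± 0.18 in the matrix-low OMMs, and TP63, a factor of basal epithelium, at 1.76 ± 0.21 and 1.91 ± 0.21 (SD, n = 9 each). EPCAM and TP63 were near the floor of the array in both groups, which limits what they can show.

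KRT5 (Transcript cluster 14362595), the keratin of basal squamous cells, had 2.09, 5.0 and 6.87 in the matrix-high OMMs and 1.24, 1.79 and 2.31 in the matrix-low OMMs. The Labrador Retriever tumours NM replicate 5 (2.09) and NM replicate 4 (2.29) lay within the matrix-low range, and the other 7 had 3.30 or more. Both tumours, like M replicate 14, also had negative first component values, as given above. The difference was 2.89 (SE 0.57) and the purebred difference 2.49. KRT15, another basal keratin, did not overlap, at 2.87 to 5.24 in the matrix-high OMMs and 1.97 to 2.74 in the matrix-low OMMs. The desmosomal cadherins DSC3 and DSG3 did not overlap either. DSC3 had 1.62, 2.93 and 4.01 in the matrix-high OMMs and 1.07, 1.18 and 1.6 in the matrix-low OMMs, a difference of 1.59 (SE 0.30). PERP, a desmosomal membrane protein, differed by 2.02 (SE 0.50) without overlap, and CLDN1, a tight junction protein, by 2.29 (SE 0.49). Purebred differences of DSC3, PERP and CLDN1 were 1.44, 1.71 and 2.03.

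Genes that squamous epithelium shares with neutrophils were among those with the largest differences. S100A8 (Transcript cluster 14432053) and S100A9 encode the subunits of calprotectin, and S100A12 a related calcium-binding protein. S100A8 had 1.09, 7.34 and 8.72 in the matrix-high OMMs and 1.50, 2.84 and 6.30 in the matrix-low OMMs. A single matrix-high tumour, NM replicate 4, held the lowest value of all 28 at 1.09, and the other 8 lay at 6.20 or more. The difference was 3.93 (SE 0.86), with 3.77 (SE 0.86) for S100A12 and 3.34 (SE 0.66) for S100A9. Purebred differences were 1.90, 1.57 and 1.17, and the differences against the 3 purebred matrix-low OMMs were 4.67, 4.46 and 3.42, given in the order S100A8, S100A12 and S100A9. The size of these differences thus depended on which low tumours were taken. Of 10 neutrophil genes measured, these 3 were the ones that were higher, and the median of the list was -0.02. Only 5 of the 10 had a mean above 2, these 3 among them, and the median difference of those 5 was 3.34. CSF3R and CXCR2, neutrophil receptors, were at 1.79 ± 0.17 and 1.30 ± 0.18 in the matrix-high OMMs and at 1.88 ± 0.29 and 1.36 ± 0.29 in the matrix-low OMMs (SD, n = 9 each). Both were near the floor of the array, which limits what they can show. CXCL8, the chemokine that attracts neutrophils, differed by 0.69 (SE 0.66), by -1.33 in the purebred comparison and by 0.65 against the 3 purebred matrix-low OMMs.

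SLPI, an antiprotease of mucosal surfaces, had 3.11, 6.61 and 8.46 in the matrix-high OMMs and 3.05, 3.28 and 3.78 in the matrix-low OMMs. As for S100A8, the low matrix-high value belonged to NM replicate 4, and the other 8 had 5.98 or more. The difference was 3.31 (SE 0.49) and the purebred difference 2.34. MALL, a membrane raft protein of epithelia, differed by 3.91 (SE 0.59), GJB2, the gap junction protein connexin 26, by 2.82 (SE 0.51), and ANXA2, a membrane-binding annexin, by 3.50 (SE 0.51). Their purebred differences were 2.77, 1.52 and 1.15, and against the 3 purebred matrix-low OMMs they differed by 3.91, 2.96 and 2.84.

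**Figure D4:**
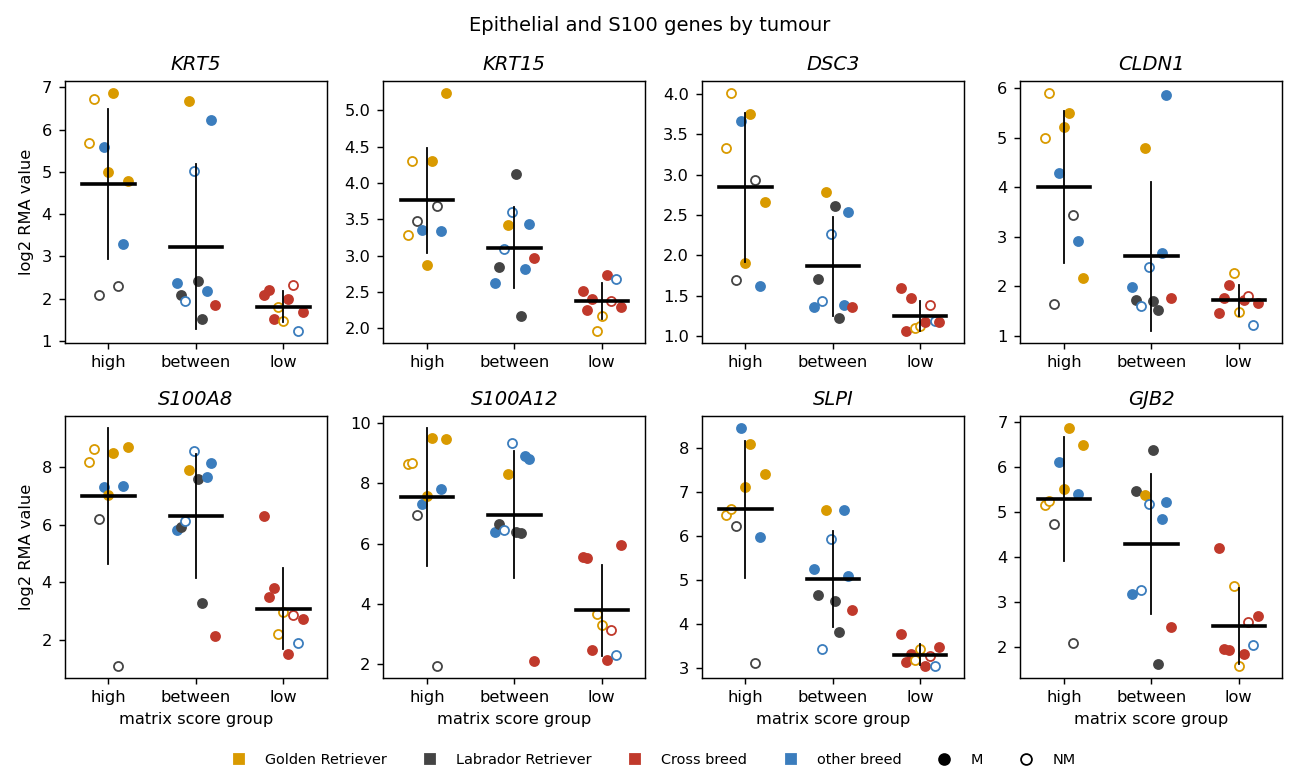
Log2 RMA values of 8 epithelial and S100 genes are shown for each tumour in the matrix-high, between and matrix-low groups (points, coloured by breed, filled for M and open for NM), with the mean (bar) and SD (line). KRT15 and DSC3 do not overlap between the matrix-high and matrix-low tumours, and for S100A8, S100A12 and SLPI a single open point, NM replicate 4, lies far below the other 8 matrix-high tumours.

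Markers of other tissue that a biopsy can include lay mostly near the floor. None of 23 skeletal muscle genes, 10 adipocyte genes or 7 salivary and glandular genes was higher or lower, with medians of 0.02, -0.23 and -0.08, but only 5, 2 and 0 of them had a mean above 2. Single tumours did hold muscle transcripts. MYH2, a myosin heavy chain of skeletal muscle, had 4.78 in the matrix-high M replicate 15 and at most 1.59 in the other 8, against 0.93 to 1.81 in the matrix-low OMMs. NM replicate 1, between the extremes, had 7.25 for MYH2 and 5.21 for NEB, the giant muscle protein nebulin, for which M replicate 15 had 3.85. Of 13 bone genes, SPP1 was higher by 1.32 (SE 0.39). It encodes osteopontin, which macrophages and tumour cells also secrete, while the bone-specific BGLAP, osteocalcin, differed by -0.27 (SE 0.14). Of 11 nerve and Schwann cell genes 1 was higher, PMP22, a myelin protein that fibroblasts also express, by 1.22 (SE 0.30), and SOX10, the lineage factor of Schwann cells and melanocytes, differed by -0.32 (SE 0.21).

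White blood cell genes were mostly near the floor as well, with 6 of 14 macrophage and dendritic, 4 of 18 T and NK and 7 of 13 B and plasma cell genes at a mean above 2. Of the 14 macrophage and dendritic cell genes 1 was higher, MRC1, the mannose receptor CD206, by 1.33 (SE 0.44), and by 0.92 in the purebred comparison. None of the 18 T and NK cell genes was higher or lower, the median was -0.16, and CD3E, a T cell signalling molecule, averaged 1.46 ± 0.21 in the matrix-high OMMs and 1.45 ± 0.26 in the matrix-low OMMs (SD, n = 9 each). CD3E was near the floor in all tumours, which limits what the array can show. Of the 13 B and plasma cell genes only JCHAIN, the joining chain of IgA and IgM, was higher, by 1.37 (SE 0.56), and its purebred difference was 0.12 (0.49 against the 3 purebred matrix-low OMMs). MS4A1, the B cell antigen CD20, differed by -0.63 (SE 0.31). PTPRC, the pan-leukocyte CD45, had 1.56 to 2.43 in the matrix-high OMMs and 1.54 to 4.10 in the matrix-low OMMs.

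Antigen presentation differed over all tumours and less so among purebred dogs. Of 15 measured genes 5 were higher, with a median of 0.59. They were DLA-DRA, DLA-DMA and DLA-DMB of the class II pathway, at 1.76 (SE 0.83), 1.62 (SE 0.47) and 1.03 (SE 0.40), and the class I genes DLA88 and B2M at 1.23 (SE 0.45) and 1.43 (SE 0.45). In the purebred comparison none of the 15 reached 1 log2 unit and the median was 0.18, and against the 3 purebred matrix-low OMMs none did and the median was -0.01. With the ribosomal mean in the model the median was 0.07. Of 18 interferon response genes 1 was higher, ISG15, a ubiquitin-like modifier, by 1.54 (SE 0.40), and the median was 0.02.

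Genes of the tumour cells varied widely within the groups. The pigment list had 2 of 23 higher and a median of 0.45 (purebred 2 of 23, median 0.28), with a list mean of 1.84 to 3.97 in the matrix-high OMMs and 1.82 to 2.79 in the matrix-low OMMs. TYRP1, a melanin synthesis enzyme, had 0.99, 1.54 and 7.72 in the matrix-high OMMs and 1.04, 1.28 and 3.67 in the matrix-low OMMs. Its difference was 1.37 (SE 0.89). NM replicate 2 and NM replicate 3 had 7.72 and 7.60, while the other 7 matrix-high tumours had 2.71 or less. BACE2, a protease that processes the melanosome protein PMEL, differed by 1.43 (SE 0.44). PMEL, MLANA and MITF, the melanocyte markers and their transcription factor, differed by 0.68 (SE 0.59), 0.35 (SE 0.40) and 0.89 (SE 0.44), and by 0.39, -0.07 and 0.53 in the purebred comparison.

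Of 40 proliferation genes 1 was higher, with a median of -0.05. MKI67, the marker of cycling cells, averaged 1.58 ± 0.22 in the matrix-high OMMs and 1.80 ± 0.13 in the matrix-low OMMs (SD, n = 9 each), both near the floor. The one gene was TYMS, thymidylate synthase, at 1.19 (SE 0.62), 0.15 in the purebred comparison and 0.97 against the 3 purebred matrix-low OMMs. Of 25 hypoxia and glycolysis genes 1 was higher, LDHA, lactate dehydrogenase, by 1.28 (SE 0.54), and its purebred difference was -0.10 (0.31 against the 3 purebred matrix-low OMMs).

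Ribosomal protein and respiratory chain genes are used by every cell. Of 58 ribosomal protein genes 24 were higher, with a median of 0.91, against 2 of 58 with a median of 0.08 in the purebred comparison and 1 of 58 with a median of -0.08 against the 3 purebred matrix-low OMMs. RPL29 had 9.28, 9.68 and 10.19 in the matrix-high OMMs and 1.36, 8.13 and 10.39 in the matrix-low OMMs, so that the matrix-high tumours were alike and the matrix-low tumours were spread over the range of the array. Its difference of 2.20 (SE 0.89) compares with 0.08 in the purebred comparison and -0.34 against the 3 purebred matrix-low OMMs. Oxidative phosphorylation had 8 of 46 higher with a median of 0.50, against 2 of 46 and 0.15 in the purebred comparison and 5 of 46 and 0.29 against the 3 purebred matrix-low OMMs. With the ribosomal mean in the model its median was 0.30. UQCRH, a hinge protein of complex III, differed by 2.81 (SE 0.51) over all tumours and by 1.47 in the purebred comparison. NDUFB1, a subunit of complex I, differed by 3.38 (SE 0.58) over all tumours and by 1.13 in the purebred comparison. What part the ribosomal mean or the epithelial genes have in the other differences was not tested beyond these values and those with the ribosomal mean as a covariate.

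**Figure D5:**
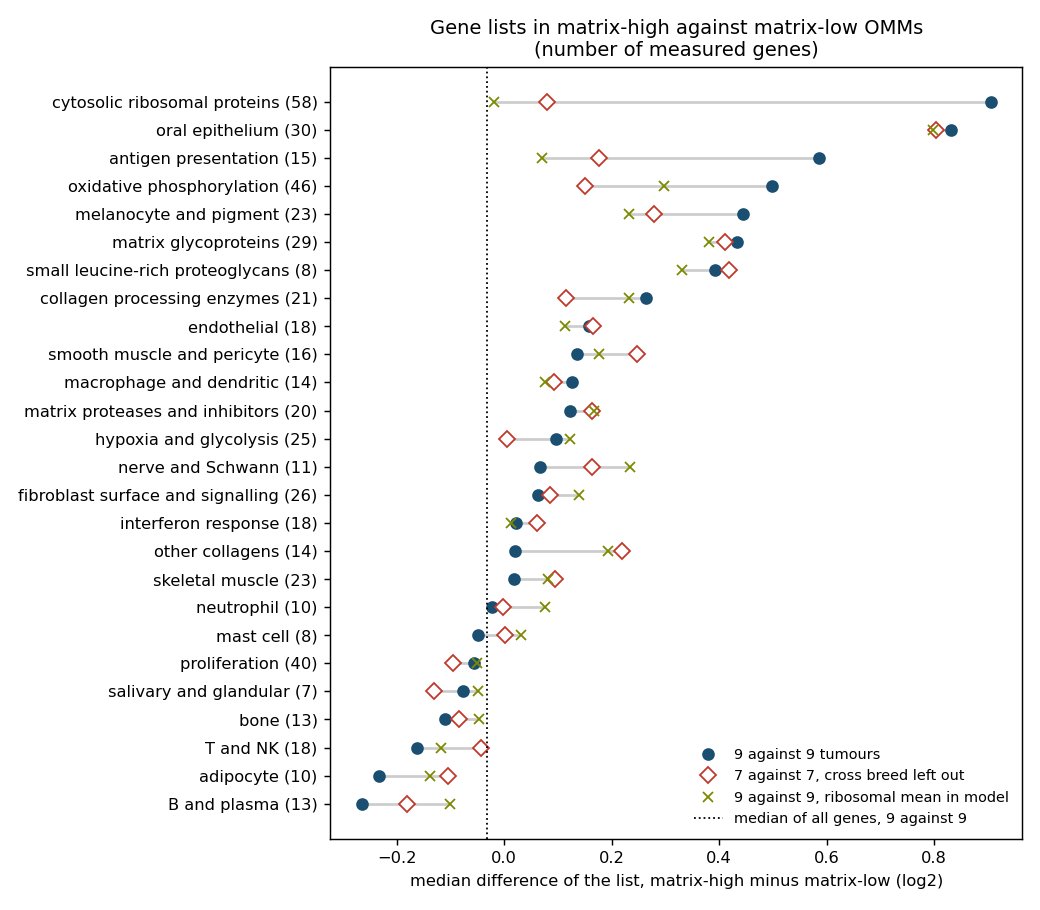
The median difference (log2, matrix-high minus matrix-low) of each of 26 gene lists is plotted for all 9 against 9 tumours (filled circles), for the 7 highest against the 7 lowest purebred tumours (open diamonds) and with the mean of ribosomal protein genes in the model (crosses), beside the median of all genes (dotted line). Oral epithelium stays near 0.8 in all 3 settings, and ribosomal protein genes have a median of 0.91 in the first and 0.08 in the purebred comparison.

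Few named genes were lower in the matrix-high OMMs. The 14 genes that were at least 1 log2 unit lower stand against 405 such Transcript clusters in all, of which 391 carried no single gene symbol. Among the 15 largest, 7 were miRNA hairpin genes, whose products silence other transcripts. MIR328 had 6.65, 7.62 and 9.19 in the matrix-high OMMs and 8.55, 9.42 and 10.41 in the matrix-low OMMs, a difference of -1.68 (SE 0.33) and a purebred difference of -0.98. MIR324 differed by -1.48 (SE 0.32) with a purebred difference of -1.16, and MIR200C, of a family known for epithelial cells, by -1.30 (SE 0.44) with a purebred difference of -0.48. The array reads hairpin loci from fragmented total RNA, so these are not levels of mature miRNA. MIR23A moved the other way, by 2.96 (SE 0.78), with 8.29 and 7.47 in the Labrador Retriever tumours NM replicate 4 and NM replicate 5. ZNF281, a zinc finger transcription factor, was the one of these 14 without overlap, at 4.63, 5.53 and 5.83 in the matrix-high OMMs and 5.91, 6.18 and 7.18 in the matrix-low OMMs. Its difference was -1.07 (SE 0.19) and its purebred difference -0.65. EP300, a histone acetyltransferase, and PHLDA1, a stress-induced gene, differed by -1.09 (SE 0.33) and -1.05 (SE 0.33).

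The last question was whether metastasis-associated expression looked different once the matrix score was held constant. With the score as a covariate in limma, 0 of 32391 Transcript clusters (0%) passed an adjusted p of 0.05 for M against NM OMMs, and 1170 had an unadjusted p under 0.05, against 0 and 825 without the score. The smallest adjusted p was 0.997. Chance alone would put more Transcript clusters under an unadjusted 0.05 than either count, so their rise is not read as signal. The interaction of status and score likewise gave 0 (0%) past adjustment, with 2360 at an unadjusted p under 0.05 and a smallest adjusted p of 0.657. Those 2360 are more than chance gives on average, and none of them passed adjustment.

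CXCL12, a chemokine made by stromal fibroblasts, is given as a stromal gene with and without the covariate. The paper reported CXCL12 as lower in M OMMs, by array and by PCR. Over all tumours it averaged 2.08 in M and 2.77 in NM OMMs, a difference of -0.69 (SE 0.31) without the score and -0.61 (SE 0.30) with it (limma, adjusted p = 0.997). By group, the matrix-high OMMs averaged 2.77 in M and 2.74 in NM tumours, and the matrix-low OMMs 1.77 in M and 2.32 in NM tumours. The highest value of all, 4.61, was in M replicate 9, a matrix-high Cocker Spaniel tumour, and the matrix-high M tumours without it averaged 2.31. ADAM10, a membrane sheddase, differed by 0.51 (SE 0.23) without and 0.61 (SE 0.21) with the score, and THBS1, the matricellular thrombospondin 1, by 0.43 (SE 0.20) and 0.52 (SE 0.17), both with an adjusted p of 0.997 in limma. THBS1 averaged 2.84 in M and 1.85 in NM tumours of the matrix-high group, and 1.64 in M and 1.67 in NM tumours of the matrix-low group. SLPI averaged 7.41 in M and 5.61 in NM tumours of the matrix-high group (6.44 in NM tumours without NM replicate 4), and 3.35 in M and 3.23 in NM tumours of the matrix-low group. Neither interaction passed adjustment over all Transcript clusters.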

How the data were processed

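The authors isolated RNA from FFPE biopsies, amplified 5.1 ng per tumour, hybridised 1 array per tumour, excluded arrays with outlying quality metrics and processed the rest in Affymetrix Expression Console 1.3 with RMA, so the deposited values are quantile normalised log2 values per Transcript cluster. The table holds 32391 Transcript clusters and 28 arrays. The study's filter on detection was not repeated. Arrays have no counts, so the number of tumours limits the precision. Values ran from 0.34 to 12.88, and the median of the Transcript cluster means was 1.62.

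Symbols came from the platform annotation (1 symbol for 16878 Transcript clusters, several for 289, none for 15224), and 16663 matched RefSeq genes by Entrez ID. Differences of group means and their SE were taken with limma 3.58.1 in R 4.3.3, without p-values. Limma with Benjamini-Hochberg adjustment was used for M against NM OMMs with the score as covariate. Permutation tests and Fisher's exact test used scipy 1.17.1. The fits recovered planted differences when tested on simulated data. Those differences were large, so the check does not show whether smaller ones would be found. Replicate numbers shared by M and NM OMMs did not pair the tumours.

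Named genes were the 15 largest differences in each direction, up to 5 per list, list members without overlap and 14 single genes. EPCAM, TP63, CSF3R, CXCR2, PDGFRA, PDGFRB, ADAM10 and THBS1 were added after their values were seen. The members and lists were chosen with earlier results of these data known. The tests of breed within M or NM, the comparison with the 3 purebred matrix-low tumours and the values for list members with a mean above 2 were added after seeing the data. The alternatives were other group sizes, other scores, normalisation, filters, covariates, blocks and leaving out tumours.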

Additional observations from a re-analysis of the deposited data

Results flagged for a closer look

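In a group of 9 or 10 tumours, a value was picked out when its gap to the nearest other tumour exceeded Dixon's critical value. This was run on the 91 genes named above in 3 groups each, and 26 of 273 gene groups were picked out. Chance gives about 1 in 20 only for independent, normally distributed values. Many of these genes were chosen for large differences and several move together, so no excess is read from this count.

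NM replicate 4, a Labrador Retriever tumour, gave 5 of these values, all at the low end of the matrix-high OMMs. This tumour also had the lowest first component and ribosomal mean of the matrix-high OMMs, at -25.3 and 4.88. By the order of breeds, this tumour had less intact RNA than most other matrix-high OMMs, and what part that has was not tested. It had 1.09 for S100A8 where the other 8 had 6.20 to 8.72, and 1.64 for S100A9 where they had 5.89 to 8.19. It had 1.95 for S100A12 where they had 6.96 to 9.52, 3.11 for SLPI where they had 5.98 to 8.46, and 2.10 for GJB2 where they had 4.74 to 6.87.

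M replicate 15, a Golden Retriever tumour, had 4.78 for MYH2 where the other 8 matrix-high OMMs had 1.02 to 1.59, and 3.85 for NEB where they had 1.55 to 2.30. NM replicate 1, a Great Dane tumour between the extremes, had 7.25 for MYH2 (others 1.10 to 2.32) and 5.21 for NEB (others 1.78 to 2.48). MYH2 and NEB were list members named by rule, and they were added to this run after their values were seen.

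Among the tumours between the extremes, M replicate 13, the cross breed tumour of that group, had 2.10 for S100A12 (others 6.34 to 9.33), 4.92 for RPL29 (others 9.0 to 10.38) and 5.53 for MIR200C (others 1.63 to 3.28). M replicate 16, a Bullmastiff tumour, had 4.44 for CXCL14 (others 1.37 to 2.43), 3.26 for DSG3 (others 1.09 to 2.06) and 5.50 for PRRX1 (others 2.04 to 3.61). M replicate 18, a Border Collie tumour next below the matrix-high limit, had 3.30 for COL6A3 (others 2.07 to 2.65) and 5.02 for FBN1 (others 1.30 to 3.09). M replicate 2 had 6.24 for PHLDA1 (others 4.02 to 4.73).

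Among the matrix-low OMMs, M replicate 4 had 3.75 for CALD1 (others 1.98 to 2.82) and 5.48 for TYMS (others 0.55 to 3.0). NM replicate 9 had 3.05 for PRRX1 (others 1.72 to 2.33) and 3.0 for SPP1 (others 1.79 to 2.17). NM replicate 7 had 4.19 for MS4A1 (others 1.08 to 2.35), M replicate 3 had 6.30 for S100A8 (others 1.50 to 3.80), M replicate 12 had 3.67 for TYRP1 (others 1.04 to 1.67), and M replicate 17 had 7.18 for ZNF281 (others 5.91 to 6.48).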

How the results depend on the processing

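Main counts were 1008 Transcript clusters higher and 405 lower by at least 1 log2 unit, and 40 higher and 37 lower without overlap. With 14 against 14 tumours they were 485, 83, 0 and 0, and with 7 against 7 the counts without overlap were 111 and 179. Without cross breed tumours (7 against 7) the counts were 389, 102, 13 and 13, and against the 3 purebred matrix-low tumours alone, added after seeing the data, 560 and 318. The ribosomal protein mean in the model gave 403 higher and 143 lower. Breed as a block, which leaves 5 against 2 Golden Retriever tumours, gave 623 lower and, with so few tumours by construction, 1638 and 3194 without overlap. Quantile normalising again gave 665 lower, a mean of at least 2 gave 22 lower without overlap, the score without COL1A2 gave 85 lower without overlap, and the score without DCN gave 25 and 17 without overlap. The score without DCN kept 7 of the 9 matrix-high and all 9 matrix-low tumours. Leaving out each tumour gave 849 to 1204 higher and 304 to 529 lower, and 40 to 82 and 37 to 174 without overlap. Counts without overlap can only grow when a tumour is left out, and they grew by over 1.5 times without NM replicate 5 (71 and 174), NM replicate 4 (82 and 66), M replicate 14 (68 and 105), and, for the lower ones, M replicate 12 (62), NM replicate 9 (76), NM replicate 6 (63) and NM replicate 7 (65).

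LDHA turned to -0.10 without cross breed tumours and RPL29 to -0.30 with breed as a block and -0.34 against the 3 purebred matrix-low tumours, where NDUFA12 turned to -0.079, and the cause was not tested. For M against NM OMMs with the score, the count at an unadjusted p under 0.05 was 2013 without cross breed tumours and 429 among the 13000 brightest, with 0 past adjustment in each. The replicate number as a block gave 1553 at an unadjusted p under 0.05 and 0 past adjustment, and the score difference between M and NM OMMs paired by number was -0.24 (exact permutation p = 0.643, n = 10 pairs). Numbers correlated with their own partner at -0.41 to 0.12, so they do not pair tumours. No other setting changed the call of the tests on status or breed. The test of the cross breed OMMs had no value without them.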

Other observations

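Outside the lists, 14 genes were higher in the matrix-high OMMs with no overlap of the groups. These genes were looked at because of their values, so their separation is a description. CD9, a tetraspanin of the cell surface, had 6.69 to 7.97 in the matrix-high OMMs and 2.71 to 6.19 in the matrix-low OMMs, a difference of 2.82 (SE 0.39) with a purebred difference of 1.91. CD63, a tetraspanin of lysosomes and melanosomes, differed by 2.14 (SE 0.43), with a purebred difference of 0.77 (1.25 against the 3 purebred matrix-low OMMs). LGALS3, the galactose-binding lectin galectin-3, had 2.48 to 6.53 in the matrix-high OMMs and 1.40 to 2.45 in the matrix-low OMMs, with a purebred difference of 1.27. SPINK5, a protease inhibitor of squamous epithelium, differed by 2.01 (SE 0.57) with a purebred difference of 1.82. PDGFRL, a gene related to the receptor for platelet-derived growth factor, had 1.89 to 3.01 in the matrix-high OMMs and 1.30 to 1.67 in the matrix-low OMMs, with a purebred difference of 0.90, and LRP1, a receptor for many matrix proteases, differed by 0.87 (SE 0.21) with a purebred difference of 0.85.

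In the other direction 10 genes did not overlap. Apart from ZNF281 their differences were small, at -0.37 to -0.24, and all lay at dim Transcript clusters. Of 284 miRNA hairpin genes on the array, 46 had a mean above 2. Among these 46, 33 had a negative difference, 6 were lower by at least 1 log2 unit and 4 higher, with a median of -0.27 (purebred -0.16). This family was looked at after its values were known. Of all Transcript clusters with a mean of 2 to 4, 7.61% were higher and 1.47% lower. At a mean above 4 the shares were 29.6% and 20%. Over the 15513 Transcript clusters without a single symbol 10940 were negative and the median was -0.12. Over the 16878 with 1 symbol 9464 were negative and the median was -0.03.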
